A study of Mus musculus with 54 samples.

Results

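The genes that fold, modify and export proteins through the endoplasmic reticulum (ER) were followed as a set of 39 in group 2 innate lymphoid cells (ILC2s) of mouse small intestine. They were chosen by function, with no measured level in the rule, but with earlier results of these data known. The shares of members called below therefore do not come from a set picked blind to the data. The 39 cover the unfolded protein response, ER chaperones, ER degradation, protein translocation and N-glycosylation. All 39 were found among the 10990 genes listed in either of 2 tables of TPM, a measure of transcript abundance scaled by gene length and library total, and all 39 passed the filter for testing in both tables. By role they were 3 sensors and transcription factors, 9 chaperones and co-chaperones, 2 lectin chaperones, 5 disulfide isomerases, 6 genes of ER degradation, 7 of the translocon, 3 of the signal peptidase and 4 of the oligosaccharyltransferase.

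The study asked what RXRγ, a nuclear receptor encoded by Rxrg, does for the reactivity of intestinal ILC2s, and measured RNA with full-length Smart-seq2 libraries. In the culture experiment, WT ILC2s from C57BL/6 mice aged 8 to 12 weeks, with both sexes pooled, were kept for 4, 48 or 72 h with IL-2, IL-7 and IL-25, or with IL-2 and IL-7 alone, which gave 6 groups of 4 libraries. In the genotype experiment, ILC2s of the same strain and age range formed 4 groups of 4 libraries: iILC2 and nILC2 of Rxrg-/- mice (KO), and iILC2 and nILC2 of Rxrg+/+ mice (CTRL). All 16 of these libraries carry IL-25 and 48 h as treatment and time. The study's description also speaks of untreated mice and of mice given PBS, so the sources used here do not settle whether the nILC2 came from mice that received IL-25, and a difference between iILC2 and nILC2 cannot be told apart from a difference in treatment. The letters i and n are used as the labels give them, without a meaning. IL-25 is an epithelial cytokine that activates ILC2s.

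Proteins bound for secretion or for membranes enter the ER through the Sec61 channel, lose their signal peptide to the signal peptidase and receive N-glycans from the oligosaccharyltransferase. Chaperones of the heat shock protein families, the lectins calnexin and calreticulin, and disulfide isomerases then fold them, and chains that stay unfolded are returned to the cytosol and degraded. When unfolded protein builds up, the kinase and nuclease IRE1 (Ern1) splices the mRNA of the transcription factor XBP1, the membrane-bound factor ATF6 is released by cleavage, and both switch on genes of this set. ILC2s secrete the type 2 cytokines IL-5 and IL-13, which take this route.

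Rxrg read 2.58, 1.76, 1.27 and 3.12 TPM in the 4 nILC2 KO libraries, against 12.3, 17.4, 12.2 and 18.4 TPM in nILC2 CTRL, and 0.26, 0.48, 0 and 0.38 TPM in iILC2 KO, against 1.72, 1.83, 1.26 and 1.68 TPM in iILC2 CTRL. KO and CTRL libraries did not overlap in either cell group. All 14 ILC2 markers examined, Gata3 and Il7r among them, were listed in both tables. Replicates correlated at 0.963 to 0.989 across genes, no 2 libraries were identical, and 9530 to 9941 genes reached 1 TPM in a library. TPM values carry no read depth, so no counting error can be given. Nothing in the labels says that the 4 libraries of a group came from separate animals or cultures, so the p-values measure the spread between these libraries, which may be technical. In each genotype group, though, Y-linked expression passed a set limit in only 2 or 3 of the 4 libraries. There the 4 libraries are unlikely to be all repeats of 1 sample, while how many animals they stand for remains unknown. These are bulk libraries, in which fewer cells of a type and less RNA per cell cannot be told apart.

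The ER stress response element (ERSE), the DNA sequence through which ATF6 and XBP1 act together with the factor NF-Y, could be read in the promoters of part of the set. RefSeq promoters on GRCm38.p6, from 250 bases before to 50 bases after the annotated start, were at hand for 31 of the 39 genes, all but Atf6, Derl1, Hyou1, Manf, Ostc, Sec61a1, Spcs3 and Ssr2. The element, CCAAT and CCACG with 9 free bases between them, searched on both strands, was present in 8 of these 31 (25.8%), against 37 of all 27025 promoters in that table (0.137%). The shorter variant ERSE-II, ATTGG and CCACG with 1 free base between them, was present in 2 of the 31 (6.45%), Dnajb11 and Herpud1, against 12 of 27025 (0.0444%). No promoter of the set held both, and both motifs end in CCACG. The set was chosen to include genes of the unfolded protein response, which works through this element, so these shares describe the set and test nothing. A match is a description of letters and was not tested for binding.

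The promoters of 7 of these genes, whose library values are given below, are shown as examples, each 5′ to 3′ on the gene's strand. The paired ends of the element are in capitals (CCAAT and CCACG, or CGTGG and ATTGG where it lies on the other strand). Those of the ERSE-II in Herpud1 are ATTGG and CCACG.
Hspa5, chr2:34771985-34772083, plus strand: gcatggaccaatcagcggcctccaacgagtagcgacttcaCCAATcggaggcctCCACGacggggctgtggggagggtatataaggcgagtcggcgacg
Hsp90b1, chr10:86705493-86705694, minus strand: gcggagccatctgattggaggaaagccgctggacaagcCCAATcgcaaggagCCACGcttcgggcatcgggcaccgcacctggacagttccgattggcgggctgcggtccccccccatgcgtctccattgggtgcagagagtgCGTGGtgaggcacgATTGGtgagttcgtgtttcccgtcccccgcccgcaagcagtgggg
Calr, chr8:84847035-84847133, minus strand: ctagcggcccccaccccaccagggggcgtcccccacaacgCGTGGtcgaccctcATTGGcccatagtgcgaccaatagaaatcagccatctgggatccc
Creld2, chr15:88819480-88819578, plus strand: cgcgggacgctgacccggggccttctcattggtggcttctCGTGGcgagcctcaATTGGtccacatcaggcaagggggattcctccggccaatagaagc
Pdia6, chr12:17266451-17266549, plus strand: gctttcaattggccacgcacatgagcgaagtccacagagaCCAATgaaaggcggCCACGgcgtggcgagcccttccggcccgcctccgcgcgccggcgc
Dnajc3, chr14:118937787-118937885, plus strand: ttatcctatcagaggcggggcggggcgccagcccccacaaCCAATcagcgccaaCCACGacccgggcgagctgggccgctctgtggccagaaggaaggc
Herpud1, chr8:94386337-94386427, plus strand: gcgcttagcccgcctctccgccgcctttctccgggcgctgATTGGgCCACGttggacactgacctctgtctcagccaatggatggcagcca
The first base of the element lay 65 bases before the annotated start in Hspa5, 98 in Pdia6, 105 in Dnajc3, 126 in Creld2 and 162 in Calr. Hsp90b1 alone held 2 copies, which began 212 and 107 bases before its start, on opposite strands. Herpud1 held the ERSE-II form 52 bases before its start. Canx and Syvn1, not printed, held an ERSE 145 and 44 bases before theirs.

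**Figure D1:**
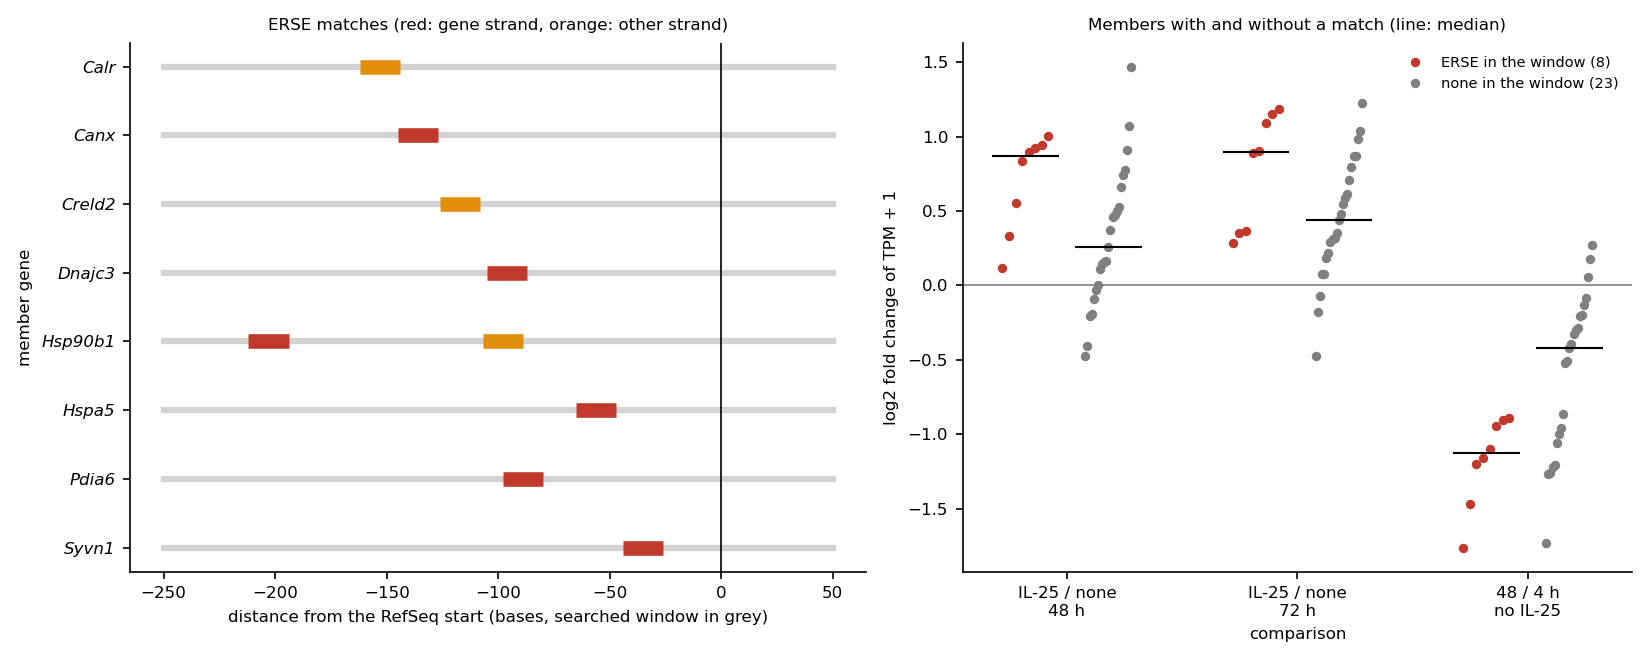
Left, the position of each ERSE in the 8 promoters that hold one, in bases from the annotated start, on the gene's strand (red) or the other (orange). Right, the log2 fold change of TPM + 1 of these 8 genes (red) and of the 23 with no ERSE in the window (grey) in 3 culture comparisons, with dots for genes and lines for medians. The 8 with an ERSE had a median log2 fold change of 0.90 with IL-25 against none at 72 h. The members with no promoter at hand are not drawn.

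IL-25 was accompanied by more of most of these transcripts at 48 h and 72 h. At 48 h, 26 of the 39 were higher and 3 lower in IL-25 cultures than in cultures without it (adjusted p under 0.05, limma), against 21.4% of all genes tested called higher and 28.7% called lower, 50.1% in all. At 72 h, 31 were higher and 2 lower, against a background of 15.3% and 33.2%. The median log2 fold change of the set was 0.50 at 48 h and 0.56 at 72 h, while the median over all genes was -0.09 and -0.20, and 6 members at 48 h and 8 at 72 h were at least 2-fold higher. Together the 39 genes held 11112 ± 228 TPM with IL-25 and 8023 ± 297 TPM without it at 48 h, and 12371 ± 107 and 8065 ± 338 TPM with and without it at 72 h (SD, n = 4 libraries). At both times no library without IL-25 reached the lowest of the IL-25 libraries in this sum. The same 26 genes were higher at both times. These 2 comparisons share no library, but come from the same fit of the culture libraries, with a shared estimate of spread. How many of all genes were higher at both times, or at least 2-fold higher, was not counted. Rescaling by the median of ratios gave 31 higher and 2 lower at 48 h and 36 and 1 at 72 h, and quantile normalization gave 25 and 3, and 32 and 3. At 72 h the median of all genes moved to 0.01 under the median of ratios and to -0.04 under quantile normalization, and that of the set to 0.80 and 0.52.

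**Figure D2:**
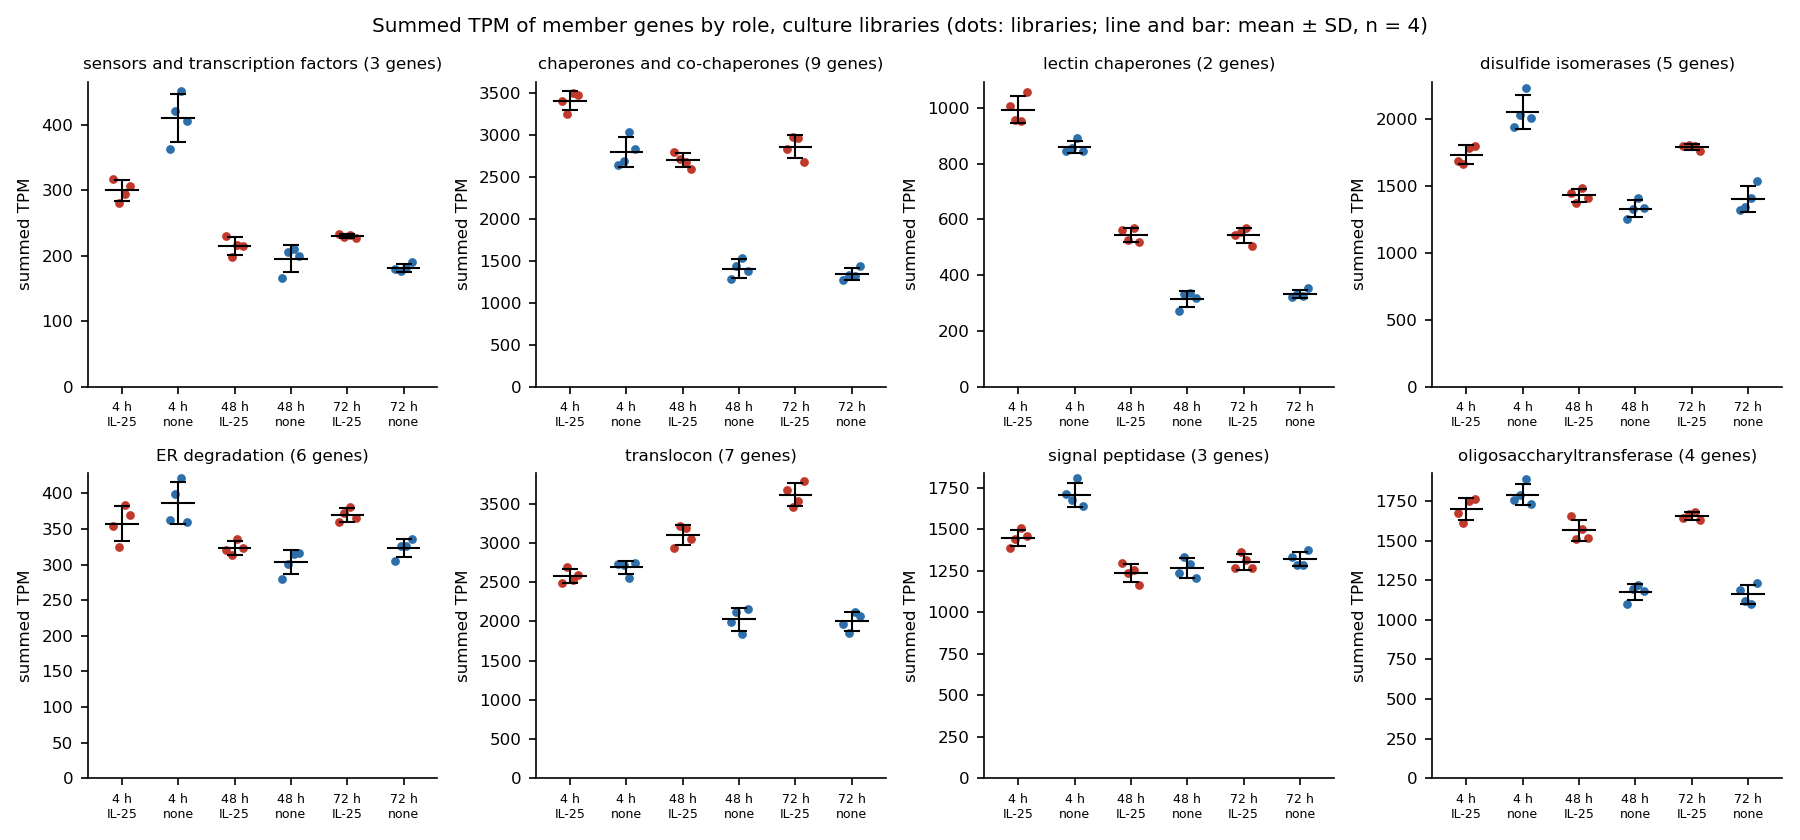
Summed TPM of the members of each role in every culture library (dots), with the mean and SD of the 4 libraries of a group, at 4, 48 and 72 h with IL-25 (red) and without it (blue). Chaperones, lectin chaperones, translocon and oligosaccharyltransferase stand higher with IL-25 at 48 and 72 h, while the signal peptidase sums overlap.

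The chaperones were higher as a group. Of the 9 chaperones and co-chaperones, 7 were higher with IL-25 at 48 h and 9 at 72 h, none was lower, and under the rescalings 7 or 8 were higher at 48 h and 9 at 72 h. Hspa5 encodes BiP, the ER member of the HSP70 family and the regulator of the stress sensors. It measured 671, 684, 689 and 637 TPM in the 4 IL-25 libraries at 72 h, against 347, 369, 345 and 373 TPM without IL-25. Every IL-25 library was above every other one, by a log2 fold change of 0.90 ± 0.05 (SE, adjusted p = 3.6e-13). At 48 h it measured 684, 659.7, 667 and 668 TPM, against 351, 369.9, 409.9 and 371 TPM, a log2 fold change of 0.84 ± 0.05 (adjusted p = 1.5e-12). Hsp90b1, the ER member of the HSP90 family, measured 786, 942, 925 and 748 TPM with IL-25 and 357, 357, 387 and 423 TPM without it at 72 h. The groups did not overlap there or at 48 h, and the log2 fold changes were 1.15 ± 0.09 at 72 h and 0.90 ± 0.09 at 48 h.

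Manf, a secreted ER stress protein that binds BiP, showed the largest difference of the set at 72 h. Its libraries read 709, 678, 690.4 and 685 TPM with IL-25, against 254, 265, 244 and 233 TPM without it. The lowest IL-25 library was more than 2-fold above the highest of the others, and the log2 fold change was 1.47 ± 0.06 (adjusted p = 7.9e-16), after 1.29 ± 0.06 at 48 h. Creld2, an ER-resident protein with isomerase activity, measured 146, 142, 144 and 147 TPM with IL-25 and 63.6, 69.4, 66.3 and 70.5 TPM without it at 72 h. Its log2 fold change was 1.09 ± 0.08 at 72 h and 0.94 ± 0.08 at 48 h, with no overlap of groups at either time. Sdf2l1, which works with ER J-domain proteins, measured 211, 238, 245 and 229.6 TPM with IL-25 and 126, 137, 151 and 137 TPM without it at 48 h, again with no overlap (log2 fold change 0.74 ± 0.08). Hyou1, a large HSP70-like protein that exchanges nucleotide on BiP, was far less abundant but differed as much: 31.1, 24.2, 28.6 and 33.5 TPM with IL-25, against 17.4, 15.7, 15.7 and 7.63 TPM without it at 48 h. Its log2 fold change was 1.05 ± 0.21 at 48 h and 0.99 ± 0.21 at 72 h. The J-domain partners of BiP did not move alike. Dnajb11 was higher at both times, by 1.07 ± 0.21 and 1.04 ± 0.21 on the log2 scale, while Dnajb9 and Dnajc3 passed the test only at 72 h and by less (0.32 ± 0.10 and 0.29 ± 0.08). Dnajc3 measured 41.4, 40.4, 38.2 and 39.5 TPM with IL-25 at 72 h, against 33.2, 30.8, 29.2 and 37.6 TPM without it.

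**Figure D3:**
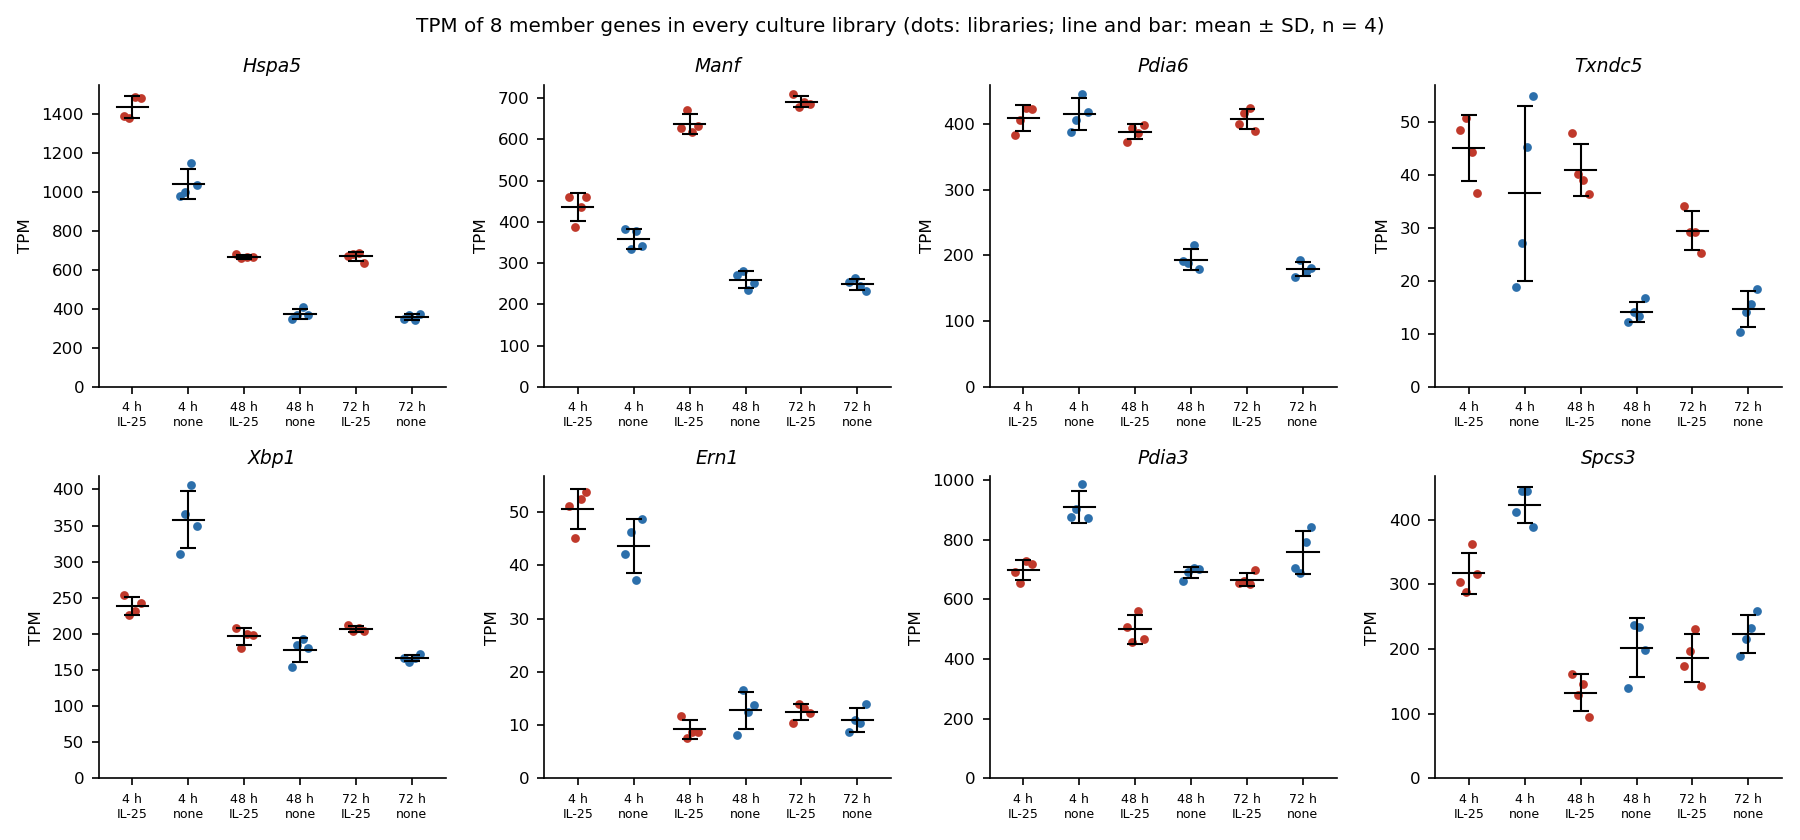
TPM of Hspa5, Manf, Pdia6, Txndc5, Xbp1, Ern1, Pdia3 and Spcs3 in each culture library (dots), with the mean and SD of 4 libraries, by time and by IL-25 (red) or none (blue). Hspa5, Manf, Pdia6 and Txndc5 separate by IL-25 at 48 and 72 h, whereas Pdia3 and Spcs3 lie lower with IL-25 at 48 h.

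Both lectin chaperones, which hold glycoproteins during folding, were higher with IL-25. Calr (calreticulin) measured 349, 352, 382 and 363 TPM at 48 h with IL-25, against 173, 196, 192 and 201 TPM without it, and 381, 387, 378 and 361 TPM against 199, 215, 195 and 201 TPM at 72 h. The groups stood apart at both times, with log2 fold changes of 0.92 ± 0.06 and 0.89 ± 0.06. Canx (calnexin) differed by less, with 214, 175, 187 and 156 TPM in IL-25 libraries and 100.4, 137, 144 and 117 TPM in the others at 48 h. These groups did not overlap at 48 h (log2 fold change 0.55 ± 0.11), but did at 72 h (0.35 ± 0.11, adjusted p = 0.010).

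The disulfide isomerases split, with 3 higher and 1 lower at 48 h and 4 and 1 at 72 h. Pdia6, which pairs with BiP, measured 400.2, 417, 424 and 389 TPM with IL-25 at 72 h, against 167, 193, 175 and 181 TPM without it. Every IL-25 library was more than 2-fold above every other library, and the log2 fold changes were 1.00 ± 0.06 at 48 h and 1.18 ± 0.06 at 72 h. Txndc5 (ERp46) had the largest log2 fold change of the set at 48 h, 1.47 ± 0.22, with 47.98, 40.3, 39.1 and 36.4 TPM in IL-25 libraries and 12.3, 14.1, 13.4 and 16.8 TPM in the others. At 72 h its log2 fold change was 0.98 ± 0.22. Pdia4 was higher at both times (0.50 ± 0.08 and 0.59 ± 0.08), and P4hb, the classical isomerase, at 72 h (0.61 ± 0.06) but not at 48 h (0.11 ± 0.06, adjusted p = 0.16). Pdia3 (ERp57), the isomerase that partners calnexin and calreticulin, went the other way. It measured 508, 458, 562 and 469 TPM with IL-25 at 48 h, against 663, 690.3, 706 and 702 TPM without it, so that every IL-25 library was lower (log2 fold change -0.47 ± 0.07, adjusted p = 1.4e-06). At 72 h its difference of -0.18 ± 0.07 was called (adjusted p = 0.025) but was 0.05 under the median of ratios, and was no longer called without any one of 72 h IL-25 library 1 or 3 or 72 h library 3 or 4 without IL-25.

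All 7 translocon genes were higher with IL-25 at 48 h and at 72 h, and under both rescalings none was lower. Sec61b, a subunit of the Sec61 channel, measured 1191, 1077, 1055 and 1151 TPM with IL-25 at 72 h, against 635, 614, 616 and 585 TPM without it. At 48 h it measured 833, 961, 912 and 909.9 TPM, against 664, 685, 539.7 and 628 TPM. The groups stood apart at both times, and the log2 fold changes were 0.53 ± 0.07 and 0.87 ± 0.07. Sec61g, the other small subunit, and Ssr2, the beta subunit of the translocon-associated TRAP complex, differed most, by 1.22 ± 0.15 and 1.13 ± 0.06 on the log2 scale at 72 h. Sec61a1, the channel itself, differed by 0.78 ± 0.07. Of the other TRAP subunits, Ssr4 measured 676, 688, 677 and 666 TPM with IL-25 and 489.7, 486, 470.3 and 496 TPM without it at 72 h, a log2 fold change of 0.48 ± 0.06 with no overlap, and Ssr1 and Ssr3 differed by 0.29 ± 0.07 and 0.55 ± 0.12.

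All 4 oligosaccharyltransferase genes were higher with IL-25 at 48 h and at 72 h, and 3 of them at 48 h under quantile normalization. Ddost, the OST48 subunit, measured 426, 425, 435 and 395 TPM with IL-25 at 72 h and 257, 256, 248 and 267 TPM without it, a log2 fold change of 0.71 ± 0.05 with no overlap. Ostc, which docks the enzyme at the translocon, measured 441, 484, 462 and 470.1 TPM with IL-25 and 328, 313, 306 and 307 TPM without it, a log2 fold change of 0.56 ± 0.05, again with no overlap. The ribophorins Rpn1 and Rpn2 differed by 0.44 ± 0.09 and 0.35 ± 0.06 at 72 h. At 48 h the call of Rpn2 (0.16 ± 0.06, adjusted p = 0.037) was lost without any one of 6 of the 8 libraries, and its value was -0.07 under quantile normalization.

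Of the 3 signal peptidase subunits, none was higher and 1 lower at 48 h, and 1 was higher at 72 h. Spcs2 measured 757, 710.3, 743 and 725 TPM with IL-25 at 48 h and 764, 738, 725 and 702 TPM without it, with overlapping groups and a log2 fold change of 0.00 ± 0.05 (95% interval -0.09 to 0.10). At 72 h its log2 fold change was -0.07 ± 0.05 (adjusted p = 0.21), but the median of ratios called it higher (0.16, adjusted p = 0.040) and quantile normalization lower (-0.21). Spcs3 was lower with IL-25 at 48 h, with a log2 fold change of -0.60 ± 0.16 (adjusted p = 0.0027), and Spcs1 was higher at 72 h, by 0.22 ± 0.07, a call lost under quantile normalization. The 3 genes summed to 1302 ± 46.9 TPM with IL-25 and 1321 ± 43.6 TPM without it at 72 h.

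Among the 6 genes of ER degradation, 2 were higher at 48 h and none lower, and 2 were higher and 1 lower at 72 h. Edem1, a mannosidase-like protein that marks misfolded glycoproteins, measured 13.8, 12.7, 14.8 and 17.6 TPM with IL-25 and 4.85, 6.43, 12.8 and 9.87 TPM without it at 72 h. The groups overlapped, and the call (log2 fold change 0.80 ± 0.26, adjusted p = 0.015) was lost without library 1 of the cultures without IL-25 (adjusted p = 0.073). Derl1, a channel component of the retrotranslocation machinery, was higher at both times (0.50 ± 0.09 and 0.49 ± 0.09). Sel1l, the adaptor of the ubiquitin ligase HRD1, was lower at 72 h, with 18.5, 17.9, 17.5 and 14.4 TPM with IL-25 and 21.2, 23.4, 24 and 27.7 TPM without it (log2 fold change -0.47 ± 0.12, adjusted p = 0.0028). Syvn1, which encodes HRD1, did not pass the test at either time: 28.8, 27.6, 23.9 and 28.2 TPM with IL-25 at 72 h, against 16.5, 25.9, 18.4 and 23.7 TPM without it (log2 fold change 0.36 ± 0.16, adjusted p = 0.055). Under both rescalings it was called higher at 48 h and at 72 h. Herpud1, a scaffold of the same complex, measured 135, 129.9, 134 and 125 TPM with IL-25 at 72 h, against 121, 126, 127 and 123 TPM without it, with overlapping groups (log2 fold change 0.07 ± 0.09). At 48 h Herpud1 was lower with IL-25, without overlap of groups, but was not called. Its mean there, 101.6 TPM, was its lowest of the culture groups.

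Of the 3 sensors and transcription factors, Atf6 was higher at both times, Xbp1 at 72 h only, and Ern1 at neither. Xbp1 measured 213, 203, 208 and 204 TPM with IL-25 at 72 h and 167, 162, 167 and 172 TPM without it. The groups stood apart, by a log2 fold change of 0.31 ± 0.07 (adjusted p = 0.00091), whereas at 48 h the value was 0.14 ± 0.07 (adjusted p = 0.10). The TPM tables hold one value per gene, so spliced and unspliced Xbp1 mRNA were not measured apart. Atf6 was low in level, with 10.9, 11.3, 10.4 and 10.7 TPM with IL-25 at 72 h and 4.61, 4.16, 3.83 and 4.64 TPM without it (log2 fold change 1.16 ± 0.13, adjusted p = 1.2e-07). Ern1 measured 11.8, 7.63, 8.70 and 8.77 TPM with IL-25 at 48 h and 8.07, 16.6, 12.5 and 13.8 TPM without it. These groups overlapped, and its call as lower (log2 fold change -0.40 ± 0.17, adjusted p = 0.047) was lost under both rescalings and without any one of 6 of the 8 libraries. At 72 h Ern1 differed by 0.19 ± 0.17 (adjusted p = 0.37), and both rescalings called it higher there.

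Set against the promoter element, the 8 genes with an ERSE had a median log2 fold change of 0.87 at 48 h (6 higher) and 0.90 at 72 h (7 higher). The 23 genes without one in the window had medians of 0.26 (13 higher, 2 lower) and 0.44 (17 higher, 2 lower). Dnajb11 and Herpud1, which held an ERSE-II, are counted among these 23. The 8 genes with no promoter in the table had medians of 0.75 (7 higher, 1 lower) and 0.89 (7 higher), close to those of the genes with an ERSE. The ranges overlapped, from 0.29 to 1.18 with an ERSE and from -0.47 to 1.22 with none in the window at 72 h, and no test was made of this difference.

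Markers of other cells moved along with IL-25. Of 13 plasma cell and B cell markers, 4 were listed in the culture table (Sdc1, Cd79b, Prdm1 and Derl3), and the other 9 were not analysed here. Their summed level was 87.3 to 119.5 TPM with IL-25, against 51.9 to 57.5 TPM without it at 48 h, and 149 to 176 TPM against 44.7 to 55.5 TPM at 72 h, mostly Cd79b. Derl3 is itself an ER degradation gene, and Prdm1, which encodes BLIMP1, is expressed by other activated lymphocytes too. Of 11 T cell markers 3 were listed, summing to 31.2 to 36.2 TPM with IL-25 and 98.4 to 153 TPM without it at 48 h. Of 9 epithelial markers 3 were listed, summing to 38.4 to 46.1 TPM with IL-25 and 102.5 to 122 TPM without it at 48 h, mostly Epcam. Krt18 went the other way, at 7.53 ± 2.33 TPM with IL-25 and 0.25 ± 0.17 TPM without it at 48 h. Of 6 erythroid markers both alpha globin genes were listed, summing to 8.71 to 19.4 TPM with IL-25 and 479 to 553 TPM without it, and of 11 myeloid and mast cell markers only Cd68. The 14 ILC2 markers moved both ways, with 5 higher and 7 lower at 48 h, and summed to 4190.5 to 4835 TPM with IL-25, led by Il5, and 2858 to 3205 TPM without it, led by Id2. At 72 h the T cell and epithelial lists each had 1 gene higher and 1 lower with IL-25, and both sums were lower. The part of these markers in the results above was not tested.

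At 4 h the set was called about as often as all genes. Of the 39 genes, 3 were higher and 11 lower in IL-25 cultures, against 13.4% and 26.9% of all genes tested. In all, 35.9% of the set was called, against 40.3% of all genes. The medians were -0.02 for the set and -0.12 for all genes. The split depends on scaling: the median of ratios, which moved the median of all genes to 0.003, gave 12 higher and 4 lower, and quantile normalization gave 4 higher and 16 lower. Without library 2 of either group, 9 of the 39 were called instead of 14. The summed level was 12519 ± 291 TPM with IL-25 and 12697 ± 408 TPM without it, with overlapping libraries. The sums of markers of these other cells were lower with IL-25 at 4 h: 5.6 to 9.37 TPM for the erythroid genes, against 60.5 to 82.5 TPM without it, 92.6 to 104 against 179.9 to 197 TPM for the epithelial ones, 26.3 to 34.2 against 43.2 to 54.0 TPM for the T cell ones and 17.8 to 28.7 against 32.03 to 38.0 TPM for the plasma and B cell ones. In the plasma and B cell list 1 of 4 genes was called lower and none higher. Cd79b averaged 15.8 TPM with IL-25 and 28.3 TPM without it, while the means of Sdc1, Prdm1 and Derl3 were higher with IL-25. The part of all these markers in the 4 h differences was not tested.

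Hspa5 and Manf were higher at 4 h under all 3 scalings. Hspa5 measured 1394, 1382, 1490.1 and 1487 TPM with IL-25, against 980.1, 1002, 1149 and 1039.5 TPM without it, with no overlap (log2 fold change 0.47 ± 0.05, adjusted p = 1.3e-07). Manf measured 461, 387, 435 and 460.1 TPM with IL-25, against 382, 333, 377 and 342 TPM without it, also apart (log2 fold change 0.28 ± 0.06, adjusted p = 0.00099). Calr was the third (0.16 ± 0.06, adjusted p = 0.029), a call that was lost under quantile normalization and without any one of 5 of the 8 libraries. Xbp1 was lower under all 3 scalings, with 254, 227, 231 and 242 TPM in IL-25 libraries and 311, 366, 406 and 349 TPM in the others. Every IL-25 library was below every other one, with a log2 fold change of -0.58 ± 0.07 (adjusted p = 5.2e-07). Pdia3, Pdia4 and Sel1l were also lower under all 3 (-0.38 ± 0.07, -0.31 ± 0.08 and -0.52 ± 0.12). The remaining 7 calls, P4hb, Spcs2, Spcs3, Ssr4, Ddost, Ostc and Rpn2, lay between -0.41 and -0.14 and were lost under the median of ratios. Spcs2, for example, measured 735, 761, 820.0 and 778 TPM with IL-25 and 932, 866, 963 and 855 TPM without it. Canx, with 503, 463, 516 and 522 TPM in IL-25 libraries and 387, 424, 473 and 406 TPM in the others, overlapped and was not called (log2 fold change 0.25 ± 0.11, adjusted p = 0.074).

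The IL-25 difference itself grew between 4 and 48 h. A test of the difference between the 2 times called 25 of the 39 genes, all in the direction of a higher effect at 48 h, against 17.2% of all genes called in that direction and 10.7% in the other, 27.9% in all. Its median was 0.53 for the set and 0.04 for all genes, and rescaling gave 24 up and 1 down, or 23 up and none down. The effect of IL-25 exceeded that at 4 h by 1.09 ± 0.08 for Ssr2, 1.07 ± 0.31 for Txndc5, 1.02 ± 0.09 for Pdia6 and 1.02 ± 0.09 for Manf, in log2 units. Xbp1, lower at 4 h, was among them (0.72 ± 0.10, adjusted p = 5.0e-06). The 4 h Txndc5 values without IL-25 were widely spread, at 18.9, 27.1, 45.4 and 54.9 TPM, beside 48.6, 50.8, 44.4 and 36.7 TPM with IL-25. Between 48 and 72 h the effect changed for 5 genes, all upward (5.22% and 9.5% of all genes up and down): P4hb by 0.51 ± 0.09, Dnajb9 by 0.42 ± 0.14, Sec61b by 0.34 ± 0.09, Ddost by 0.34 ± 0.07 and Pdia3 by 0.29 ± 0.09. That count was 10 under quantile normalization and 14 under the median of ratios, all upward. It was 3 without any one of 48 h IL-25 library 4, 72 h IL-25 library 4, 48 h libraries 2 or 4 without IL-25 and 72 h library 2 without IL-25.

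**Figure D4:**
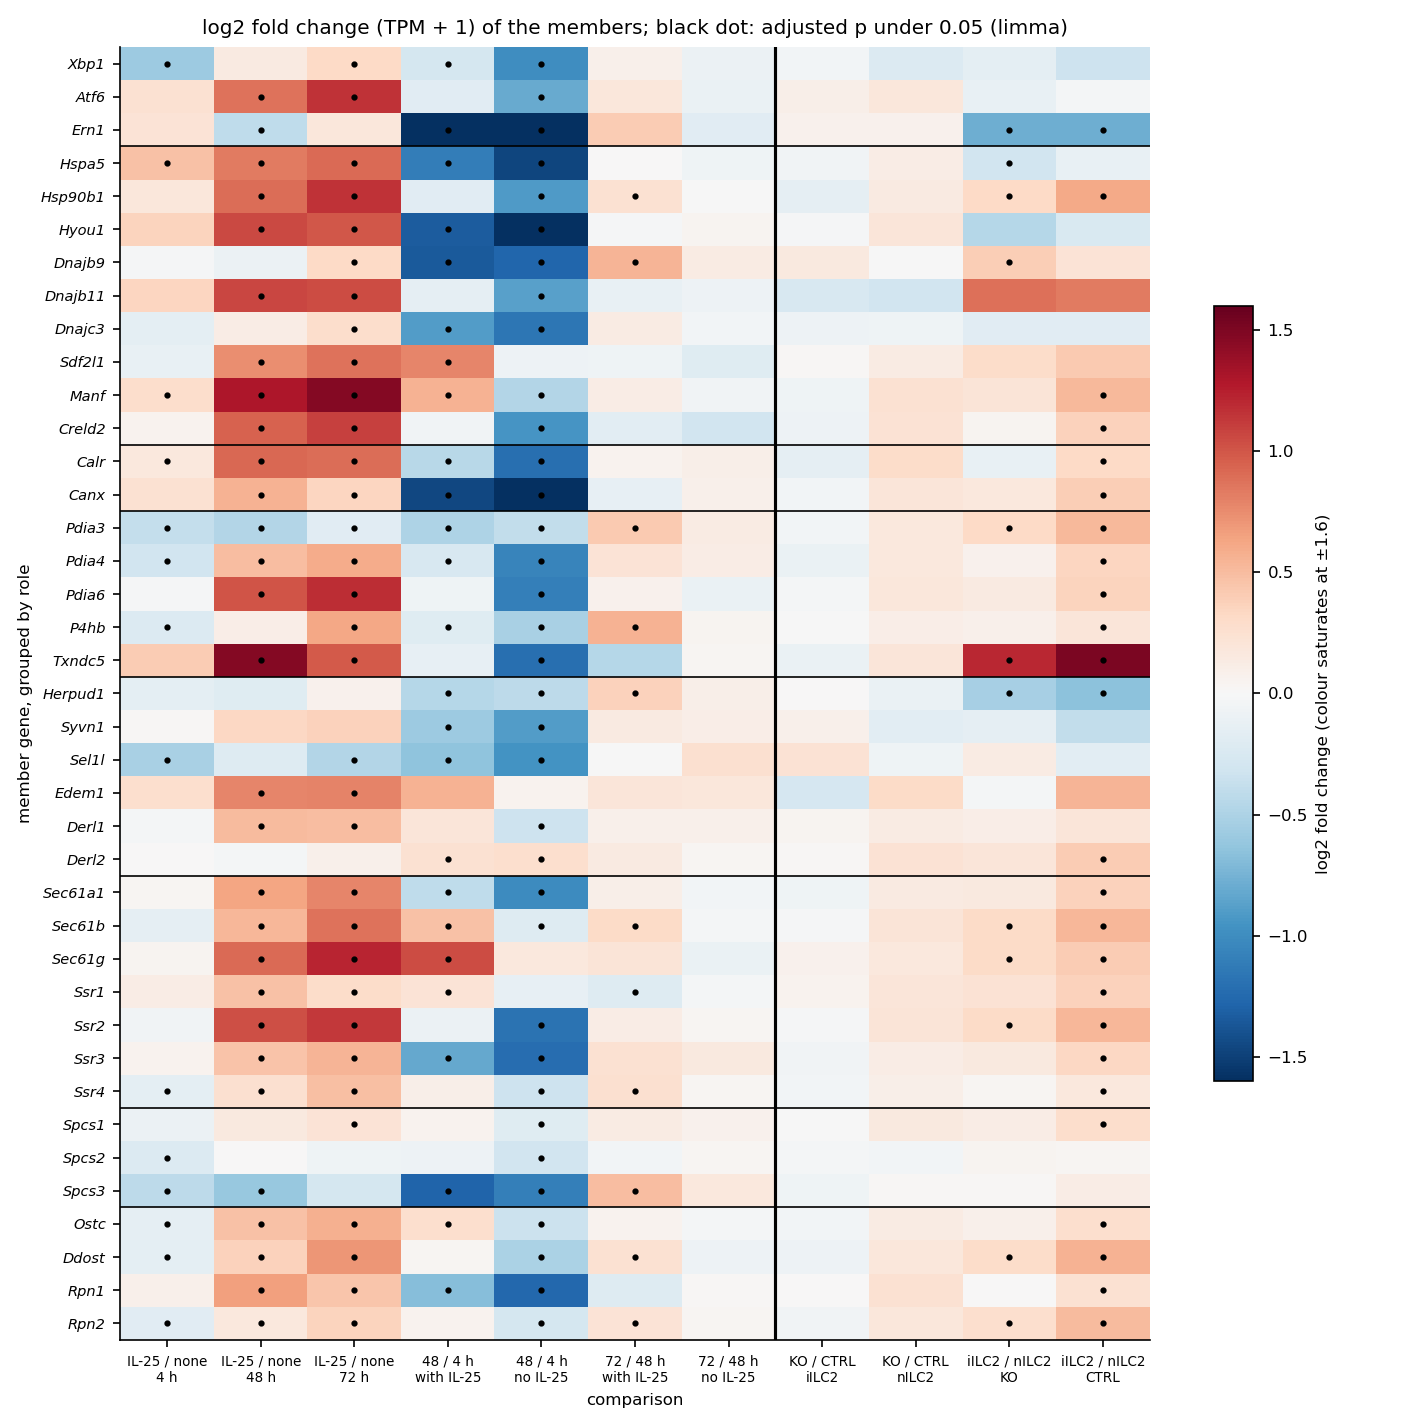
Log2 fold change of TPM + 1 of each of the 39 genes (rows, by role) in each comparison (columns), with a mark where the adjusted p was under 0.05. Most rows are positive for IL-25 against none at 48 and 72 h and negative for 48 h against 4 h without IL-25.

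Most of the set was lower later in culture where IL-25 was absent. Between 4 and 48 h without IL-25, 34 of the 39 genes were lower and 1 higher, against 44.5% and 19.9% of all genes tested, 64.4% in all, with medians of -0.89 for the set and -0.28 for all genes. Of these, 15 were at least 2-fold lower, and the share of all genes at that size was not counted. With IL-25, 18 were lower and 7 higher over the same interval, against 44.5% and 27.6% of all genes, with a median of -0.18 beside -0.24 for all genes. These comparisons use the same libraries as the IL-25 comparisons at 4 and 48 h, so they are not independent of them. Under the median of ratios the counts were 24 lower and 4 higher without IL-25 and 14 lower and 17 higher with it, and under quantile normalization 33 and 1, and 22 and 9. Markers of other cells moved over the same interval without IL-25, the erythroid sum to 479 to 553 TPM at 48 h against 60.5 to 82.5 TPM at 4 h, the T cell sum to 98.4 to 153 TPM against 43.2 to 54.0 TPM, and the epithelial sum to 102.5 to 122 TPM against 179.9 to 197 TPM. Their part in the falls was not tested.

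The stress sensor Ern1 fell most with IL-25, to 11.8, 7.63, 8.70 and 8.77 TPM at 48 h against 51.2, 45.1, 52.5 and 53.8 TPM at 4 h (log2 fold change -2.35 ± 0.17). Without IL-25 it measured 8.07, 16.6, 12.5 and 13.8 TPM at 48 h and 42.1, 46.3, 37.3 and 48.8 TPM at 4 h (-1.73 ± 0.17). The groups stood far apart both ways. Hyou1 fell most without IL-25, to 17.4, 15.7, 15.7 and 7.63 TPM at 48 h against 51.9, 63.01, 50.3 and 69.7 TPM at 4 h (-2.03 ± 0.21), followed by Canx at 100.4, 137, 144 and 117 TPM against 387, 424, 473 and 406 TPM (-1.76 ± 0.11). Hspa5 fell with and without IL-25, with log2 fold changes of -1.10 ± 0.05 and -1.47 ± 0.05.

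Manf, Sec61b and Ostc were higher at 48 h than at 4 h with IL-25 and lower without it. Manf measured 628, 672, 619 and 631 TPM at 48 h and 461, 387, 435 and 460.1 TPM at 4 h with IL-25 (0.55 ± 0.06), and 272, 279.7, 236 and 251 TPM at 48 h and 382, 333, 377 and 342 TPM at 4 h without it (-0.47 ± 0.06). Its libraries did not overlap in either pair. The falls of Sec61b and Ostc without IL-25 (-0.20 ± 0.07 and -0.35 ± 0.05) were not kept under the median of ratios (0.13 and -0.01), nor was that of Manf (-0.13), while their rises with IL-25 were. Sec61g (1.04 ± 0.15) and Sdf2l1 (0.78 ± 0.08) rose most with IL-25, and neither was called without it (0.17 ± 0.15 and -0.08 ± 0.08), though the median of ratios called both higher there (0.51 and 0.25). The 8 genes with an ERSE were all lower at 48 h than at 4 h without IL-25, with a median of -1.13, and 18 of the 23 without one were lower, with a median of -0.42. The 8 genes with no promoter in the table were also all lower, with a median of -0.91, and no test was made of these differences.

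From 48 to 72 h without IL-25 no member was called, against 0.379% of all genes, and 2 had an unadjusted p under 0.05 (5.13%, against 11.6% of all genes), although both rescalings called Creld2 lower (-0.36 and -0.37), the direction in which 0.0948% of all genes were called before rescaling. With IL-25, 10 were higher and 1 lower at 72 h, against 13.4% and 17.9% of all genes. P4hb led with Dnajb9, Spcs3 and Pdia3, at 0.55 ± 0.06, 0.55 ± 0.10, 0.49 ± 0.16 and 0.42 ± 0.07. P4hb measured 534, 508, 495 and 479 TPM at 72 h and 357, 324, 336 and 355 TPM at 48 h, with no overlap. Both rescalings gave 16 higher and none lower.

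In the genotype experiment, iILC2 held more of the export machinery than nILC2. In CTRL mice 23 of the 39 genes were higher in iILC2 and 2 lower, against 21.9% and 23.6% of all genes tested, 45.5% in all, with medians of 0.33 for the set and -0.03 for all genes. In KO mice 9 were higher and 3 lower, against 13.8% and 17.6%, with medians of 0.11 and -0.05. Of the 23 called higher in CTRL mice, 8 were also called in KO mice (Hsp90b1, Pdia3, Txndc5, Sec61b, Sec61g, Ssr2, Ddost and Rpn2), but the test of the difference between genotypes called none, so the 2 genotypes were not shown to differ. The summed level was 8771 ± 112 TPM in iILC2 and 7044 ± 435 TPM in nILC2 of CTRL mice, and 8503 ± 181 and 7729.6 ± 367 TPM in iILC2 and nILC2 of KO mice. The counts depend on the scaling: quantile normalization left 10 higher and 6 lower in CTRL mice and 2 higher and 5 lower in KO mice, and the median of ratios gave 23 and 2, and 13 and 3. The median of the set was 0.09 in CTRL and 0.004 in KO mice under quantile normalization.

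**Figure D5:**
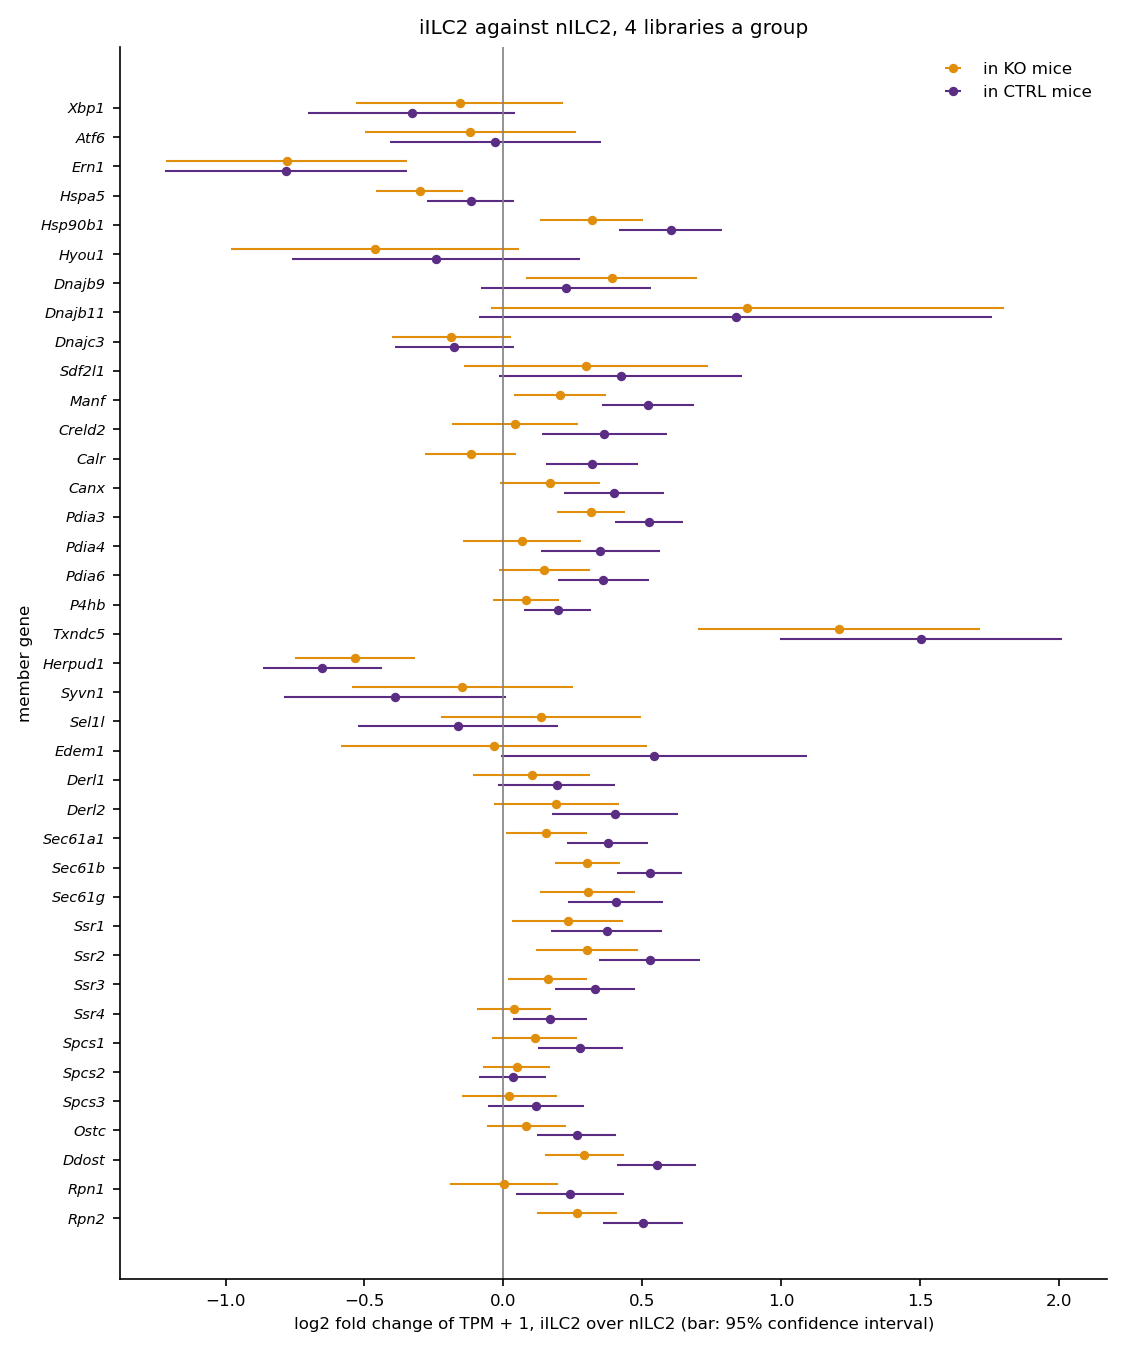
Log2 fold change of TPM + 1 of iILC2 over nILC2 for each of the 39 genes, with its 95% confidence interval, in KO mice (orange) and in CTRL mice (purple), 4 libraries a group. Txndc5 lies farthest to the right and Ern1 and Herpud1 farthest to the left in both.

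Txndc5 differed most in both genotypes and under every scaling. In CTRL mice it measured 47.8, 65.4, 73.4 and 66.6 TPM in iILC2, against 15.2, 22.3, 26.8 and 22.9 TPM in nILC2, and in KO mice 51.1, 54.5, 76.03 and 53.8 TPM against 15, 30.4, 41.3 and 19.2 TPM. No nILC2 library reached an iILC2 library of its genotype, and the log2 fold changes were 1.5 ± 0.24 in CTRL and 1.21 ± 0.24 in KO mice. Hsp90b1 measured 596, 593, 600.3 and 541 TPM in iILC2 of CTRL mice, against 413, 416, 373 and 337 TPM in nILC2, with no overlap (0.60 ± 0.09). In KO mice its difference was 0.32 ± 0.09. Ddost measured 329.9, 331, 318 and 319 TPM in iILC2 and 231, 233, 232 and 190.5 TPM in nILC2 of CTRL mice, again apart (0.55 ± 0.07). Pdia3, which was lower with IL-25 in culture, was higher in iILC2, with 709.8, 710.0, 719 and 709 TPM against 519.8, 529, 478 and 456 TPM in CTRL mice (0.52 ± 0.06) and a log2 fold change of 0.31 ± 0.06 in KO mice.

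All 7 translocon genes were higher in iILC2 of CTRL mice, but quantile normalization left 2 higher and 1 lower. Sec61b measured 708, 695, 644 and 658 TPM in iILC2 and 481, 489, 457 and 449.6 TPM in nILC2 of CTRL mice, with no overlap (0.53 ± 0.06, and 0.14 under quantile normalization). Manf measured 308, 319.7, 288 and 329 TPM in iILC2 and 223, 248, 201 and 197 TPM in nILC2 of CTRL mice (0.52 ± 0.08). Calr, Canx, Creld2 and Pdia6 were higher in CTRL mice by 0.32 ± 0.08, 0.40 ± 0.09, 0.36 ± 0.11 and 0.36 ± 0.08. Those 4 calls were lost under quantile normalization (0.01, 0.08, 0.21 and 0.09). Hspa5 was not among the higher genes, with 404, 432, 423 and 426 TPM in iILC2 and 464, 495, 467 and 405 TPM in nILC2 of CTRL mice (-0.12 ± 0.07, adjusted p = 0.21, and -0.49 and called lower under quantile normalization). In KO mice it was lower in iILC2 (-0.30 ± 0.07, adjusted p = 0.0046).

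Ern1 and Herpud1 were lower in iILC2 in both genotypes and under every scaling. Herpud1 measured 97.5, 73.9, 98.1 and 87.2 TPM in iILC2, against 139, 125, 146 and 149.6 TPM in nILC2 of CTRL mice, and 74.4, 90.8, 95.02 and 97.9 TPM against 123, 123, 143 and 130.2 TPM in KO mice. Neither pair overlapped, at -0.65 ± 0.10 and -0.53 ± 0.10 on the log2 scale. Ern1 measured 13.01, 10.9, 10.7 and 10.6 TPM in iILC2, against 22.4, 13.4, 22.9 and 23.5 TPM in nILC2 of CTRL mice, where the groups stood narrowly apart (-0.78 ± 0.21). Xbp1 was at 52.96, 72.4, 68.2 and 59.2 TPM in iILC2 and 51.5, 86.1, 98.1 and 89.7 TPM in nILC2 of CTRL mice and did not pass the test (-0.33 ± 0.18, adjusted p = 0.14). Of the 31 genes higher with IL-25 at 72 h in culture, 21 were among the 23 higher in iILC2 of CTRL mice, which is 67.7% and 91.3% of the 2 lists. Over the 9846 genes tested in both tables, 607 were called higher in both, 42.6% of the 1426 higher with IL-25 and 28.7% of the 2118 higher in iILC2. Quantile normalization left only 10 of the 39 called higher in iILC2 of CTRL mice. Those not called in iILC2 included Xbp1, Atf6, Hspa5, Hyou1, Dnajb11, Dnajc3 and Sdf2l1. Of 13 plasma cell and B cell markers 3 were listed in this table, and they summed to 248 to 293 TPM in iILC2 and 120 to 157 TPM in nILC2 of CTRL mice, mostly Cd79b. The 14 ILC2 markers summed to 1225 to 1314 TPM in iILC2 and 2689 to 3012 TPM in nILC2 of CTRL mice, and the 3 listed T cell markers to 28.2 to 47.5 and 89.6 to 114 TPM in the same groups. The part of these markers in the result was not tested.

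None of the 39 genes passed the threshold between KO and CTRL mice. In nILC2 no member was called in KO against CTRL mice, against 1.54% of all genes tested, and 14 (35.9%) had an unadjusted p under 0.05, as had 19.3% of all genes. The log2 fold change was above 0 for 31 of the 39 (79.5%) and for 49.4% of all genes. Its median was 0.16 for the set and -0.003 for all genes, but 0.060 for the set under quantile normalization, and the summed level was 7729.6 ± 367 TPM in KO and 7044 ± 435 TPM in CTRL nILC2. The ILC2 markers summed to 1979 to 2686 TPM in KO and 2689 to 3012 TPM in CTRL nILC2, with 3 of 14 called lower and none higher. Of the 3 listed epithelial markers 1 was lower, Epcam, at 9.96 ± 2.76 TPM in KO and 20.8 ± 5.28 TPM in CTRL nILC2. The part of these markers was not tested. Sec61b came closest, with 564, 520.2, 511 and 576 TPM in KO and 481, 489, 457 and 449.6 TPM in CTRL nILC2. Its groups did not overlap, and the log2 fold change was 0.21 ± 0.06 (adjusted p = 0.066). With the replicate number as a block it was called (1 member, adjusted p = 0.049). Calr measured 252, 278, 289 and 276 TPM in KO and 218, 261, 228 and 191 TPM in CTRL nILC2, with overlap (0.29 ± 0.08, adjusted p = 0.070), and was called under the median of ratios. Leaving out nILC2 KO library 1 gave 5 calls (Calr, Canx, Creld2, Hsp90b1 and Sec61b), and leaving out nILC2 CTRL library 2 gave 3 (Calr, Manf and Sec61b), all higher in KO.

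In iILC2 no member was called in KO against CTRL mice, and none had an unadjusted p under 0.05, against 0% of all genes called and 3.26% at an unadjusted p under 0.05. The log2 fold change was above 0 for 12 of the 39 (30.8%) and for 46.6% of all genes, with a median of -0.04 beside -0.01 for all genes. Calr measured 249, 245, 256 and 256 TPM in KO and 272, 284, 262 and 294 TPM in CTRL iILC2, without overlap (-0.14 ± 0.08, 95% interval -0.31 to 0.02). Hsp90b1 measured 537, 529, 529 and 513 TPM in KO and 596, 593, 600.3 and 541 TPM in CTRL iILC2, also without overlap (-0.14 ± 0.09). Xbp1 measured 53.95, 62.03, 69.5 and 58.2 TPM in KO and 52.96, 72.4, 68.2 and 59.2 TPM in CTRL iILC2, with overlap. The KO effect was not called different between iILC2 and nILC2 for any member (0% of all genes were called). At an unadjusted p under 0.05 were 9 members (23.1%) and 10.5% of all genes. Over all 39 genes, whatever their p, the largest log2 difference in KO effect was that of Edem1 (-0.57 ± 0.37), with a wide SE. Calr followed (-0.44 ± 0.11, adjusted p = 0.24, limma) and was called without nILC2 KO library 1.

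Members varied unequally between libraries of a group. In nILC2 KO, Txndc5 measured 15, 30.4, 41.3 and 19.2 TPM, Dnajb11 22.6, 74.2, 139 and 48.7 TPM and Sdf2l1 66.02, 134, 165 and 90.9 TPM, with library 1 lowest and library 3 highest for all 3 genes. In nILC2 CTRL, Dnajb11 measured 30.7, 97.5, 103 and 87.04 TPM, and library 1 was again the lowest. In contrast, Spcs2 measured 621, 589.6, 551 and 558 TPM in nILC2 KO and 602, 606, 555 and 624 TPM in nILC2 CTRL, and its highest group mean in this table was 1.05 times its lowest. Across the culture groups the ratio of the highest to the lowest mean was largest for Ern1 (5.50), Hyou1 (5.30) and Canx (4.02) and smallest for Spcs1 (1.22) and Spcs2 (1.27).

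Related genes outside the set were taken from 4 lists by function. With IL-25, 21.4% of all genes tested were higher and 28.7% lower at 48 h, and 15.3% and 33.2% at 72 h. Of 22 listed genes of signal recognition, translocation and glycosylation, 17 were higher and 2 lower with IL-25 at 48 h and likewise at 72 h (quantile normalization left 11 and 2 at 48 h). Sec11a, a catalytic subunit of the signal peptidase, differed by 1.07 ± 0.07 at 48 h, beside 0.00 for Spcs2. Stt3b, one of the alternative catalytic subunits of the oligosaccharyltransferase, was lower, with 10.9 ± 1.23 TPM with IL-25 and 33.8 ± 3.89 TPM without it at 48 h (log2 fold change -1.55 ± 0.12), while Stt3a, the other, was higher (0.39 ± 0.11, a call lost under quantile normalization). Of 17 genes of ER to Golgi transport, 10 were higher and 1 lower at both times (13 or 10 higher and none lower at 72 h under the rescalings). Kdelr3, a receptor that returns chaperones to the ER, averaged 30.6 ± 1.35 TPM with IL-25 and 1.31 ± 0.23 TPM without it at 72 h (log2 fold change 3.78 ± 0.30), and Lman1, a cargo receptor, differed by 1.83 ± 0.09, while Kdelr1 was lower at 48 h (-0.45 ± 0.11) and at 72 h (-0.28 ± 0.11), a call lost at 72 h under both rescalings (-0.05 and -0.16). Of 23 further folding and quality control genes, 8 were higher and 1 lower at 48 h, and 10 and 2 at 72 h. At 48 h this was a smaller share than the 50.1% of all genes called, with a median log2 fold change of 0.07. Ero1l, the oxidase that recharges the disulfide isomerases, averaged 1161 ± 151 TPM with IL-25 and 344 ± 68.2 TPM without it at 72 h (log2 fold change 1.76 ± 0.13).

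Genes of the PERK arm of the stress response, which slows translation, moved both ways. Of its 9 genes, 4 were higher and 2 lower with IL-25 at 48 h, against 21.4% and 28.7% of all genes tested. At 72 h the counts were 5 and 2, against 15.3% and 33.2%. Atf4, its transcription factor, averaged 138 ± 5.48 TPM with IL-25 and 75.2 ± 8.32 TPM without it at 48 h (log2 fold change 0.87 ± 0.07), and Nupr1, a stress-induced chromatin protein, 228 ± 15.3 TPM with IL-25 and 41.7 ± 6.72 TPM without it (2.44 ± 0.19). Ddit3, which encodes CHOP and is the arm's death-linked factor, was lower, at 10.2 ± 1.61 TPM with IL-25 and 36.2 ± 22.03 TPM without it (-1.58 ± 0.23). At 72 h the Ddit3 call (-0.63 ± 0.23) was lost under both rescalings. In iILC2 of CTRL mice, Ddit3 and Ppp1r15a, which encodes GADD34, were lower than in nILC2 (-0.96 ± 0.19 and -1.17 ± 0.16). The 4 other genes of the arm listed in that table were not called, and 23.6% of all genes were called lower in that comparison. No gene of the 4 lists was called in KO against CTRL mice in either cell group (1.54% of all genes in nILC2 and 0% in iILC2). Under the median of ratios, though, Tmed10, a cargo receptor of ER to Golgi transport, was called higher in KO nILC2 (0.28, adjusted p = 0.041, limma).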

How the data were processed

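RNA of sorted ILC2s was sequenced with Smart-seq2 in 40 libraries, and 14 ATAC-seq and CUT&Tag samples of the series were not analysed here. The authors deposited TPM per gene in 2 tables, and per the submitters' processing notes the tools included cutadapt 2.10, STAR 2.7.5c and RSEM 1.3.3 with mm10, with no role stated for each. TPM fixes the total of a library, so a few abundant genes can lower all others, and read depth is unknown.

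On log2(TPM + 1), limma 3.58.1 (R 4.3.3) estimated 1 mean per group separately in both tables, with no block, for the 10548 and 10069 genes that reached 1 TPM in 4 or more libraries. Calls required a Benjamini-Hochberg adjusted p under 0.05 over all genes tested. Fold changes refer to TPM + 1, so those of low genes are understated, and ± marks the SE of a fold change or the SD of 4 libraries. The fits were tested on simulated data.

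The members, the role and marker lists and the tests were chosen with earlier results of these data known. All members could be named, and library values were planned for 21 of them. Those of Atf6, Dnajb11, P4hb, Pdia3 and Sel1l, and the choice of Stt3a and Kdelr1, were added after their values were seen. Alternatives were quantile normalization, a median of ratios rescaling, a pseudocount of 0.1 TPM, no filter or one at 5 TPM, array weights, fits limited to the groups compared, a replicate block, each library left out, and a term for Y-linked expression added after seeing the data. Same-numbered nILC2 KO and iILC2 KO libraries deviated together in all 4 pairs (correlation 0.102 to 0.231), a pairing that comes from the data and not from the labels. No other 2 groups exceeded a correlation of 0.1 in all 4 pairs. Between the other groups of the genotype experiment 2 or 3 pairs did, among them nILC2 CTRL with iILC2 CTRL (0.049 to 0.253). Promoters came from RefSeq on GRCm38.p6.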

Additional observations from a re-analysis of the deposited data

Results flagged for a closer look

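In 8 of the 210 combinations of a gene with planned library values and a group, one library stood apart from the other 3 by Dixon's criterion, and over all 39 genes in 15 of 390 (3.85%). Chance flags about 1 in 20 groups. Creld2 measured 151.68 TPM in 48 h IL-25 library 4, against 165 to 167 TPM in the others. Ern1 measured 13.41 TPM in nILC2 CTRL library 2, against 22.4 to 23.5 TPM, and 13.01 TPM in iILC2 CTRL library 1, against 10.6 to 10.9 TPM. Those are the libraries at which iILC2 and nILC2 came closest for Ern1. Ddost measured 190.5 TPM in nILC2 CTRL library 4, against 231 to 233 TPM. Manf measured 290.96 TPM in nILC2 KO library 3, against 245 to 249 TPM. Hsp90b1 measured 541.3 TPM in iILC2 CTRL library 4, against 593 to 600.3 TPM. In iILC2 KO, Sdf2l1 measured 121.52 TPM in library 1, against 135 to 138 TPM, and Txndc5 measured 76.03 TPM in library 3, against 51.1 to 54.5 TPM.

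The effect of IL-25 differed between times by a test of the difference itself. Between 48 h and 4 h it did so for 25 genes, with the 4 highest differences in Ssr2 (1.09), Txndc5 (1.07), Pdia6 (1.02) and Manf (1.02), in log2 units. Between 72 h and 48 h it did so for 5 genes, with the 4 highest in P4hb (0.51), Dnajb9 (0.42), Sec61b (0.34) and Ddost (0.34).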

How the results depend on the processing

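The scaling of the TPM values was the choice that moved most results, and the cause was not tested. Signs were followed for members called as reported or under the alternative, not for the others. Under the median of ratios the sign of the log2 fold change turned for Ostc at 4 h (0.0097) and for Pdia3 (0.052) and Spcs2 (0.16) at 72 h with IL-25 against none. For 48 h against 4 h with IL-25 it turned for Creld2 (0.22), P4hb (0.089), Pdia4 (0.031), Pdia6 (0.21), Spcs2 (0.21), Ssr2 (0.19) and Xbp1 (0.0040). For 48 h against 4 h without IL-25 it turned for Rpn2 (0.047), Sdf2l1 (0.25), Sec61b (0.13), Spcs1 (0.13), Spcs2 (0.030), Ssr1 (0.19) and Ssr4 (0.0069). Under quantile normalization it turned for Rpn2 at 48 h (-0.069), for iILC2 against nILC2 of CTRL mice in Ostc (-0.069), P4hb (-0.15), Rpn1 (-0.037), Spcs1 (-0.079), Spcs2 (-0.35) and Ssr4 (-0.20), and for Ssr4 in KO mice (-0.20). Quantile normalization left 16 members called for iILC2 against nILC2 of CTRL mice (25 as reported) and 7 of KO mice (12).

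The change of the IL-25 effect between 48 and 72 h was called for 5 members as reported, for 10 under quantile normalization, 14 under the median of ratios and 3 with the compared groups fitted alone. For 72 h against 48 h without IL-25 both rescalings called 1 member, Creld2, against 0. For KO against CTRL in nILC2 the median of ratios called 1 (Calr), against 0. With the replicate block 1 member was called there (Sec61b), and 13 instead of 12 for iILC2 against nILC2 in KO mice, where the numbers pair the libraries. Over the same members the block turned no sign, added 10 calls and removed 1.

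Leaving out one library at a time gave 9 to 15 called members for IL-25 at 4 h, 27 to 29 at 48 h and 32 to 34 at 72 h. It gave 24 to 26 and 3 to 6 for the changes of that effect, 0 to 5 for KO against CTRL in nILC2, 0 in iILC2 and 0 to 1 for their difference, the 1 being Calr without nILC2 KO library 1. Among calls it turned no sign, and it removed the call of a member in 107 refits. The other alternatives turned no sign of a call either. The Y-linked term, with 2 or 3 of 4 libraries above its limit in each genotype group, changed no call. TPM gives no depth, so the precision of the lowest members, Atf6, Hyou1, Edem1 and Ern1 among them, rests on the spread of 4 libraries.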
